A study of Mus musculus with 16 samples.

Results

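The enzymes that carry the tricarboxylic acid (TCA) cycle from citrate synthesis to succinyl-CoA are described here in brown adipose tissue (BAT) and gonadal white adipose tissue (gWAT). They were taken as 7 genes, namely Cs, Idh2, Idh3a, Idh3b, Idh3g, Ogdh and Dlst, out of 22911 genes that the array's RefSeq accessions could be matched to. All 7 were found on the array through 11 probes, with 2 probes each for Cs, Idh2, Idh3g and Ogdh and a single probe each for the other genes, and the brightest probe stood for its gene. The values are 1-colour Agilent signals, written as log2 signal over the 75th percentile of the same array.

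Adipo-Pgam1 KO mice carry a floxed Pgam1 gene, which encodes the glycolytic enzyme phosphoglycerate mutase 1, and a Cre recombinase driven by the promoter of the adipocyte gene Adipoq, so that deletion is directed to cells that express Adipoq. The controls are called littermate wild-type in the labels, and the study's methods give them as littermates with floxed Pgam1 and no Cre. All mice were males of the strain C57BL/6NCrSlc on normal chow, 16 weeks old except KO replicate 4 of each tissue, which was 14 weeks old. There were 4 arrays for each of the 4 groups, BAT control, BAT KO, gWAT control and gWAT KO, 16 arrays in all. RNA came from whole tissue, and the labels do not say that the numbered samples are separate animals, so the p-values measure the spread between these samples.

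Citrate synthase (Cs) condenses acetyl-CoA with oxaloacetate to form citrate. After citrate is rearranged to isocitrate, the latter is oxidized to alpha-ketoglutarate by the NAD+-dependent enzyme IDH3, built from alpha, beta and gamma subunits (Idh3a, Idh3b, Idh3g), or by the NADP+-dependent mitochondrial enzyme Idh2. The alpha-ketoglutarate dehydrogenase complex then makes succinyl-CoA, with Ogdh as its decarboxylating subunit, Dlst as its succinyltransferase core and Dld as the shared dihydrolipoamide dehydrogenase. Brown adipocytes are rich in mitochondria and burn acetyl-CoA through this cycle to drive heat production, whereas white adipocytes hold fewer mitochondria and export citrate for fatty acid synthesis.

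The promoters of these genes are shown because their transcripts moved together across the 16 arrays. RefSeq windows of 300 bases (250 before and 50 after the transcription start, assembly GRCm38.p6) were matched for 6 of the 7 genes, and the most upstream window was used for Ogdh, which has 6. The ETS letters CCGGAAG, the core bound by GABP (Gabpa), which is known to act on genes for mitochondrial proteins, were found on either strand in 3 of these 6 windows, those of Idh3b, Idh3g and Dlst, and in 9.14% of 27025 gene promoters. Those 3 windows are printed with the Idh2 window, which holds none of these letters and belongs to the gene with the smallest change in both depots on its brightest probe under 75th percentile scaling. The Cs and Ogdh windows, not printed, hold none either. Ogdh changed by -1.35 in BAT against -1.14 for Dlst, and Cs was called in gWAT (0.98), where Idh3g and Dlst were not. A link between the letters and the changes was not tested. In the sequences, capitals mark CCGGAAG or its reverse complement and, in Idh3g only, also the YY1 letters AAGATGG.
Idh3b promoter, chr2:130284402-130284701, minus strand: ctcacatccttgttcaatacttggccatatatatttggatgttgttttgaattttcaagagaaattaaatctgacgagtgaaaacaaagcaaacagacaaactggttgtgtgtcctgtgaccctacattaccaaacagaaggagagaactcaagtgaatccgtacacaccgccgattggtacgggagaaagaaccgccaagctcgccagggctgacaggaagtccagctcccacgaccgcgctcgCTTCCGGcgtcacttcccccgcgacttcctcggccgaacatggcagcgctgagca
Idh3g promoter, chrX:73786848-73787147, minus strand: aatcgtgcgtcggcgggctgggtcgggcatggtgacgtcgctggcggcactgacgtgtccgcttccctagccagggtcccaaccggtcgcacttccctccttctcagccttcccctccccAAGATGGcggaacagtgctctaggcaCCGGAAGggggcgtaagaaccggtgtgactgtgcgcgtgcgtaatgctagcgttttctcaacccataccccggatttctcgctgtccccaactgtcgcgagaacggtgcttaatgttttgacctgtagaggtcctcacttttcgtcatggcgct
Dlst promoter, chr12:85110583-85110882, plus strand: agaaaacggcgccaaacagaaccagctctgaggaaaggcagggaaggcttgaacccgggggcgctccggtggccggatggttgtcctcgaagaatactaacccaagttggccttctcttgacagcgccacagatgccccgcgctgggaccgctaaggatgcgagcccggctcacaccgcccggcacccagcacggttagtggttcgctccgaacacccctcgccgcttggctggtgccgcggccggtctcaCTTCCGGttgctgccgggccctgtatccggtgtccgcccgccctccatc
Idh2 promoter, chr7:80115301-80115600, minus strand: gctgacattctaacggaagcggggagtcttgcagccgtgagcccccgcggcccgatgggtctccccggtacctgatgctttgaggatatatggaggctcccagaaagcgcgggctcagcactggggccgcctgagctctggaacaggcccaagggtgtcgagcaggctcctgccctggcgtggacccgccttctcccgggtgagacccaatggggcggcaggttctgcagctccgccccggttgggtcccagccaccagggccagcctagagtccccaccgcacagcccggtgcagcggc

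The ETS letters began 5 bases before the start of Idh3b, 104 bases before that of Idh3g and 1 base after that of Dlst. The AAGATGG letters were found in 1 of the 6 windows and in 6.46% of all promoters. The SP1 letters GGGCGG were found in 4 windows, those of Cs, Dlst, Idh2 and Ogdh, against 35.9% of all promoters. The estrogen-related receptor core AAGGTCA (4.65% of all promoters), the longer element TCAAGGTCA that contains it (0.407%) and the NRF1-like letters GCGCANGCG (6.49%) were found in 0 of the 6 windows on either strand. These matches describe letters in a short window and carry no measurement of binding.

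Pgam1 itself was first read on every array as a check of the labels. In BAT it stood at 7.94, 7.93, 8.07 and 7.82 in controls and at 6.20, 6.13, 6.03 and 6.43 in KO (log2 signal), a change of -1.74 (SE 0.11, adjusted p = 1.11e-05, limma). In gWAT it stood at 5.07, 5.15, 5.67 and 5.56 in controls and at 6.50, 6.42, 6.38 and 5.95 on the arrays labelled KO, a change of 0.95 (SE 0.19, adjusted p = 0.0139, limma), which goes against the label. The second Pgam1 probe gave -1.65 in BAT and 1.02 in gWAT. The floxed exons are not named in the sources used here, so whether either probe lies in deleted sequence is unknown. Every gWAT direction below rests on arrays labelled Adipo-Pgam1 KO.

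The arrays differed in overall brightness, which bears on every value given relative to the 75th percentile. That percentile lay between 401 and 451 intensity units in BAT controls, 650.2 and 916 in BAT KO, 570.3 and 855 in gWAT controls, and 657 and 831 on the KO-labelled gWAT arrays. The share of probes well above background ran from 49.99% to 62.2%, no spot was saturated, and all 11 probes of the 7 genes were well above background on all 16 arrays. Of the controls, only replicate 4 of each tissue shared a slide with the KO arrays of its tissue, so most of each genotype comparison also crosses slides.

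In BAT, all 7 genes were lower in Adipo-Pgam1 KO mice, and all 7 passed the test. The change ran from -0.60 in Idh2 to -1.67 in Idh3b on the log2 scale, with a median of -1.14 against -0.08 over all 14280 genes tested. The KO and control arrays did not overlap for any of the 7. In the same comparison 34.0% of all genes tested were called lower and 61.5% were called in either direction, while 32.0% were lower without overlap, so a lower call was common in BAT KO. Since whole tissue was measured, fewer brown adipocytes and less RNA per adipocyte cannot be told apart.

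Cs stood at 9.61, 9.51, 9.73 and 9.43 in the BAT controls and at 8.83, 8.59, 8.48 and 8.94 in BAT KO. The lowest control lay above the highest KO array, and the change was -0.86 (SE 0.13, adjusted p = 4.68e-04, limma), which leaves 0.551 of the control level. The second Cs probe went less far. It read 7.53, 7.36, 7.56 and 7.51 in controls and 7.36, 7.05, 6.99 and 7.51 in KO, a difference of -0.26 with overlapping groups. Quantile normalization moved the change of Cs in BAT to 0.05 (adjusted p = 0.768, limma), and none of the other 6 genes crossed 0 under it.

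The subunits of the NAD+-dependent isocitrate dehydrogenase fell unequally. Idh3a, the catalytic subunit, stood at 8.19, 8.23, 8.26 and 8.19 in controls and at 7.14, 7.05, 6.90 and 7.45 in KO, a change of -1.08 (SE 0.12, adjusted p = 1.11e-04, limma). Idh3b, the beta subunit, went from 7.79, 7.82, 8.08 and 7.89 to 6.27, 5.99, 5.98 and 6.68, a change of -1.67 (SE 0.17, adjusted p = 5.93e-05, limma), or 3.17-fold lower. Idh3g, the gamma subunit, went from 9.10, 9.12, 9.19 and 9.12 to 7.61, 7.35, 7.28 and 7.86, a change of -1.61 (SE 0.13, adjusted p = 2.63e-05, limma), or 3.06-fold lower. The second Idh3g probe gave -1.96. Idh2, which makes NADPH, went from 7.51, 7.36, 7.38 and 7.24 to 6.79, 6.61, 6.69 and 7.002, a change of -0.60 (SE 0.11, adjusted p = 0.00183, limma), with -0.77 on its second probe. This was the smallest BAT change of the 7 on the brightest probes under 75th percentile scaling. With all probes averaged, Cs had the smallest (-0.56, against -0.69 for Idh2), as it did under quantile normalization (0.05 against -0.30).

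Ogdh and Dlst, which belong to the alpha-ketoglutarate dehydrogenase complex, both fell in BAT. Ogdh went from 8.88, 8.87, 8.93 and 8.82 in controls to 7.59, 7.40, 7.31 and 7.82 in KO, a change of -1.35 (SE 0.12, adjusted p = 3.78e-05, limma), or 2.55-fold lower, and its second probe gave -1.50. Dlst went from 8.30, 8.33, 8.33 and 8.23 to 7.29, 7.01, 6.90 and 7.41, a change of -1.14 (SE 0.13, adjusted p = 9.44e-05, limma), or 2.21-fold lower. The BAT controls were tight for these genes, with an SD of 0.04 for Ogdh and 0.05 for Dlst against 0.23 and 0.24 in BAT KO.

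**Figure D1:**
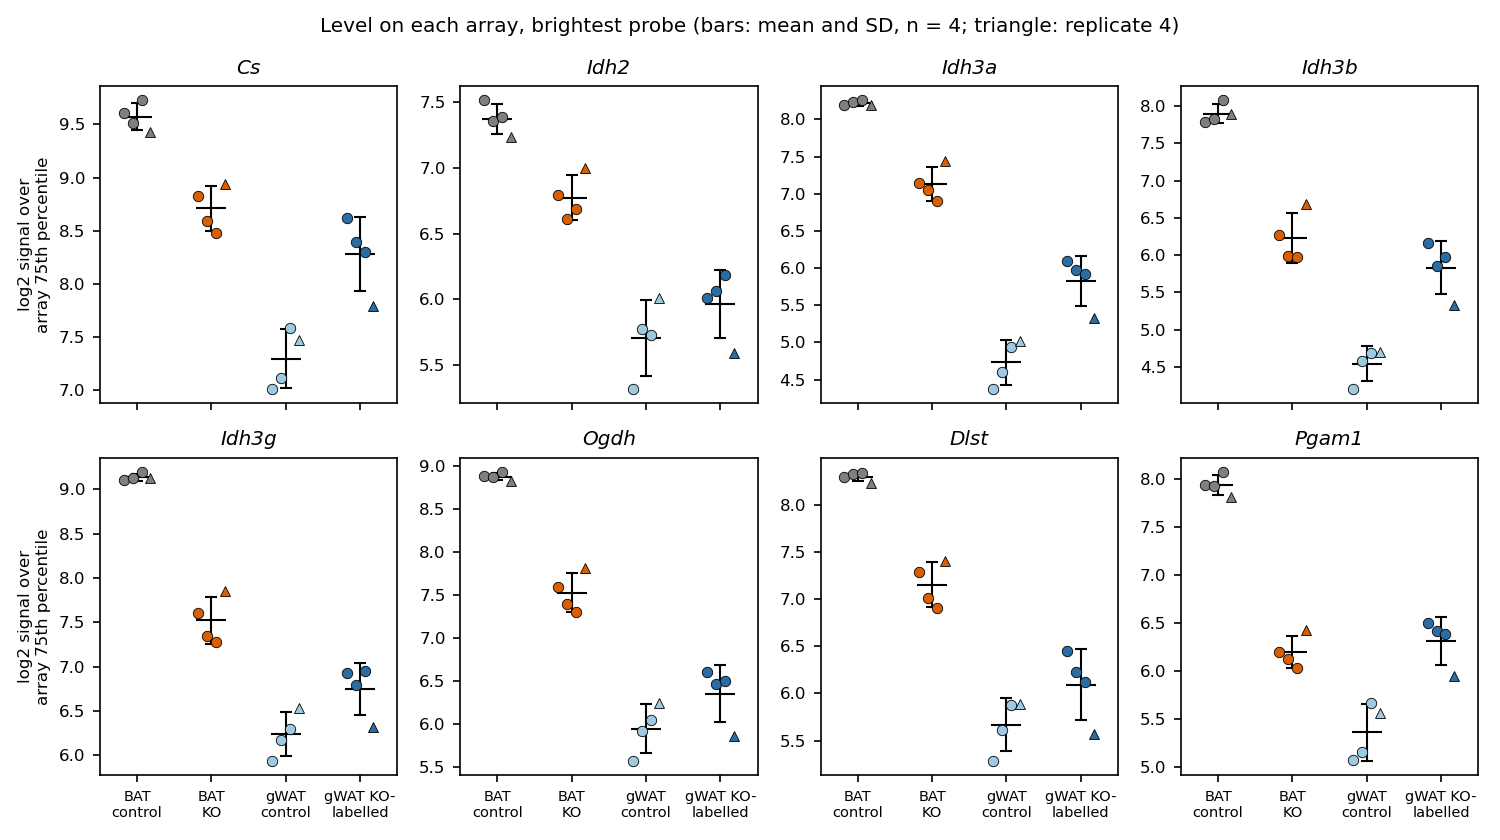
Level of each of the 7 genes and of Pgam1 on each of the 16 arrays, as log2 signal over the array's 75th percentile (y axis), by group (x axis). Bars give mean and SD of 4 arrays and triangles mark replicate 4. BAT controls are highest in every panel, and gWAT controls are lowest. Idh3b, for example, reads 7.79 to 8.08 in BAT controls and 4.21 to 4.70 in gWAT controls.

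In gWAT, the means of all 7 genes were higher on the KO-labelled arrays, and 3 of 7 passed the test, all 3 higher. These were Cs, Idh3a and Idh3b, and they were also the only 3 of the 7 without overlap between groups. Over all 14149 genes tested, 9.99% were called higher, 17.8% were called in either direction, and 13.4% were higher without overlap. The median change of the 7 genes was 0.51 against 0.05 over all genes tested.

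Idh3b had the largest change of the 7, from 4.21, 4.58, 4.69 and 4.70 in gWAT controls to 6.16, 5.85, 5.98 and 5.33 on the KO-labelled arrays, a change of 1.29 (SE 0.20, adjusted p = 0.00630, limma), or 2.44-fold. Idh3a went from 4.37, 4.60, 4.94 and 5.02 to 6.09, 5.97, 5.92 and 5.33, a change of 1.09 (SE 0.21, adjusted p = 0.0130, limma), or 2.14-fold. Cs went from 7.01, 7.12, 7.58 and 7.47 to 8.62, 8.40, 8.30 and 7.80, a change of 0.98 (SE 0.21, adjusted p = 0.0171, limma), or 1.98-fold. Cs no longer passed without gWAT control replicate 2 (0.92, adjusted p = 0.0507, limma) or without gWAT KO replicate 1 (0.87, adjusted p = 0.0504, limma). Here the second Cs probe went further than the first, by 1.34, again without overlap.

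The gamma subunit did not follow the other subunits of its enzyme. Idh3g read 5.94, 6.17, 6.30 and 6.54 in gWAT controls and 6.93, 6.80, 6.95 and 6.32 on the KO-labelled arrays, a difference of 0.51 (SE 0.19, 95% interval 0.09 to 0.94, adjusted p = 0.0895, limma). Its groups overlapped through KO replicate 4 only. The second Idh3g probe differed by 0.77 without overlap.

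The remaining 3 genes had smaller differences that did not pass. Ogdh read 5.57, 5.92, 6.05 and 6.24 in gWAT controls and 6.60, 6.46, 6.50 and 5.86 on the KO-labelled arrays, a difference of 0.41 (95% interval -0.06 to 0.87, adjusted p = 0.195, limma). Dlst read 5.29, 5.62, 5.88 and 5.89 against 6.45, 6.22, 6.12 and 5.57, a difference of 0.42 (95% interval -0.07 to 0.92, adjusted p = 0.204, limma). Idh2 read 5.32, 5.78, 5.73 and 6.01 against 6.01, 6.07, 6.18 and 5.59, a difference of 0.25 (95% interval -0.17 to 0.68, adjusted p = 0.371, limma). In each of the 3, the lowest KO-labelled array was replicate 4.

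Under 75th percentile scaling, replicate 4 of the KO, the younger mouse in both tissues by the labels, stood apart alike for all 7 genes. It was the highest BAT KO array for 7 of 7 genes and the lowest KO-labelled gWAT array for 7 of 7, that is, in each depot the KO array nearest to the controls of that depot. In BAT this order depended on the scaling. The 75th percentile of BAT KO replicate 4 was 650 against 845 to 916 on BAT KO replicates 1 to 3. Before scaling, BAT KO replicate 4 was not the highest BAT KO array for any of these genes, whereas gWAT KO replicate 4 stayed the lowest. The share of all genes with this order was not computed. Without gWAT KO replicate 4, 5 of the 7 genes passed in gWAT, with Idh3g at 0.66 (adjusted p = 0.0277, limma) and Ogdh at 0.57 (adjusted p = 0.0495, limma) added, and Dlst at 0.60 (adjusted p = 0.0527, limma) outside. Calls also rose over all genes there, to 3211 of 14381 from 2525 of 14149 with every array. Without BAT KO replicate 4, all 7 stayed called in BAT, where 8596 of 14940 genes were called in all. Age, replicate and array brightness cannot be told apart here, since each KO group holds 1 array of the younger age.

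Setting the KO arrays only against control replicate 4, which shared their slide, left differences of 1.13 for Idh3b, 0.81 for Idh3a, 0.81 for Cs, 0.21 for Idh3g, 0.20 for Dlst, 0.11 for Ogdh and -0.05 for Idh2 in gWAT. A fit with slide as a fixed block gives these same changes. The other gWAT controls lie on another slide and bear only on the spread. With slide as a fixed block 0 of 7 genes passed there (adjusted p = 0.142 for Idh3b, 0.254 for Idh3a and 0.269 for Cs, limma), against 184 genes called in all. At an unadjusted p under 0.05 in that blocked fit, 3 of 7 passed, and the count over all genes at that level was not computed. The methods' t-test, which takes no slide into account, passed 4 of 7 at that level, against 4673 of 14149 genes in all. With slide as a random block 3 of 7 genes and 2403 genes in all were called in gWAT (consensus correlation 0.0116). In BAT the same within-slide differences were -1.67 for Idh3b, -1.60 for Idh3g, -1.30 for Ogdh, -1.08 for Dlst, -1.06 for Idh3a, -0.72 for Cs and -0.46 for Idh2. With slide as a fixed block 6 of 7 passed in BAT, Idh2 being the exception (adjusted p = 0.0614, limma). In that fit 6677 of 14280 genes were called in all, so a call was common.

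**Figure D2:**
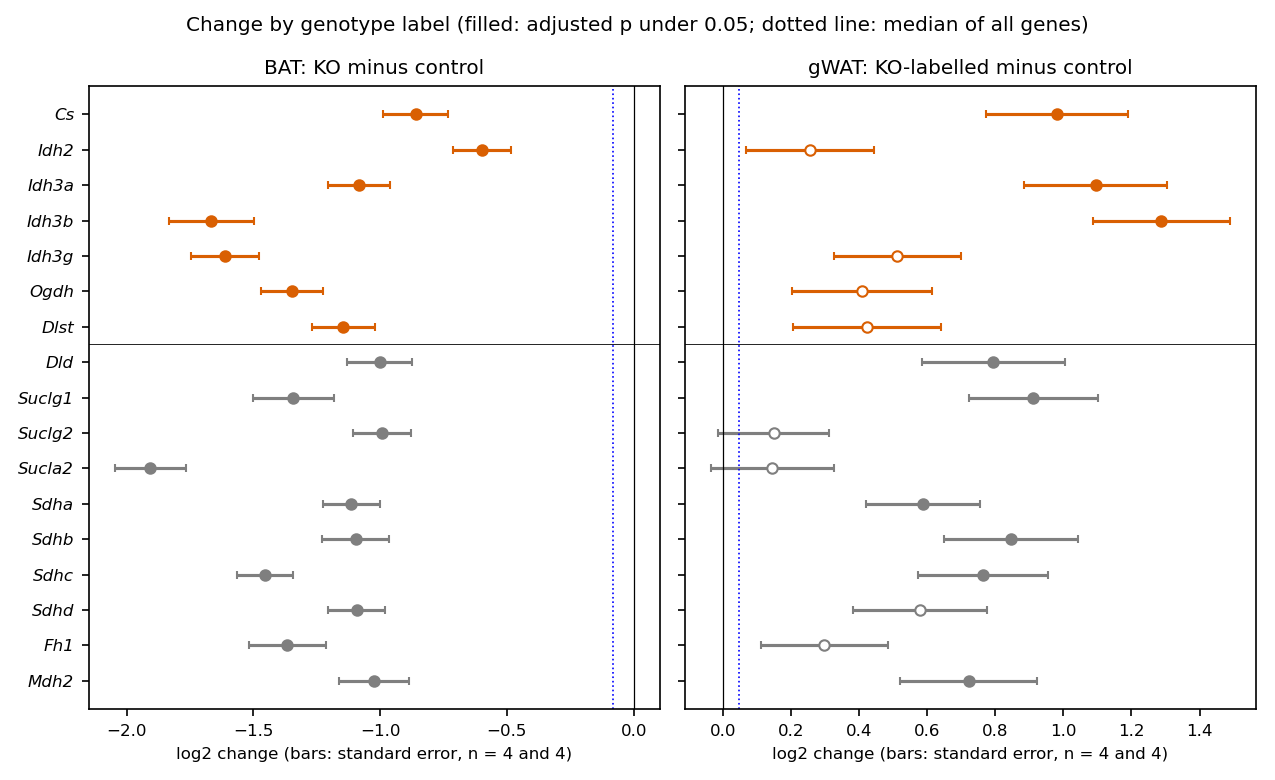
Log2 change by genotype label (x axis, bars give the standard error of 4 against 4 arrays) for the 7 genes in orange and 10 other mitochondrial TCA cycle genes in grey, in BAT (left) and gWAT (right). Filled points passed an adjusted p of 0.05 and the dotted line is the median of all genes tested, -0.08 in BAT and 0.05 in gWAT. All points lie left of 0 in BAT and right of 0 in gWAT, where Idh2, Idh3g, Ogdh and Dlst are open.

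The brightness of the arrays set how far the BAT changes reached. The mean log2 of the 75th percentile was 0.94 higher in BAT KO than in BAT controls and 0.10 higher on the KO-labelled gWAT arrays than in gWAT controls. Before scaling, the brightest Cs probe gave 300865 to 351401 intensity units in BAT controls and 319264 to 414732 in BAT KO, and the unscaled log2 differences were 0.08 for Cs and 0.35 for Idh2. For the other 5 genes they stayed below 0, from -0.14 in Idh3a and -0.20 in Dlst to -0.40 in Ogdh, -0.67 in Idh3g and -0.72 in Idh3b. Scaling by 7 spike-in probes shifted the median of all genes in BAT from -0.08 to 0.46 and that of the 7 genes from -1.14 to -0.61. The genes lay 1.06 below the median of all genes in both. This distance could not differ, since a single factor per array shifts the change of every gene alike. Under spike-in scaling Idh2 no longer passed in BAT (-0.06, adjusted p = 0.662, limma), and in gWAT all 7 passed, while the median of all genes there moved to 0.49. Scaling by Actb and Rplp0 moved the median of all genes in BAT to -0.67 and that of the 7 genes to -1.74. Relative to the median of all genes, quantile normalization gave -0.72 for the 7 genes in BAT and 0.28 in gWAT.

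**Figure D3:**
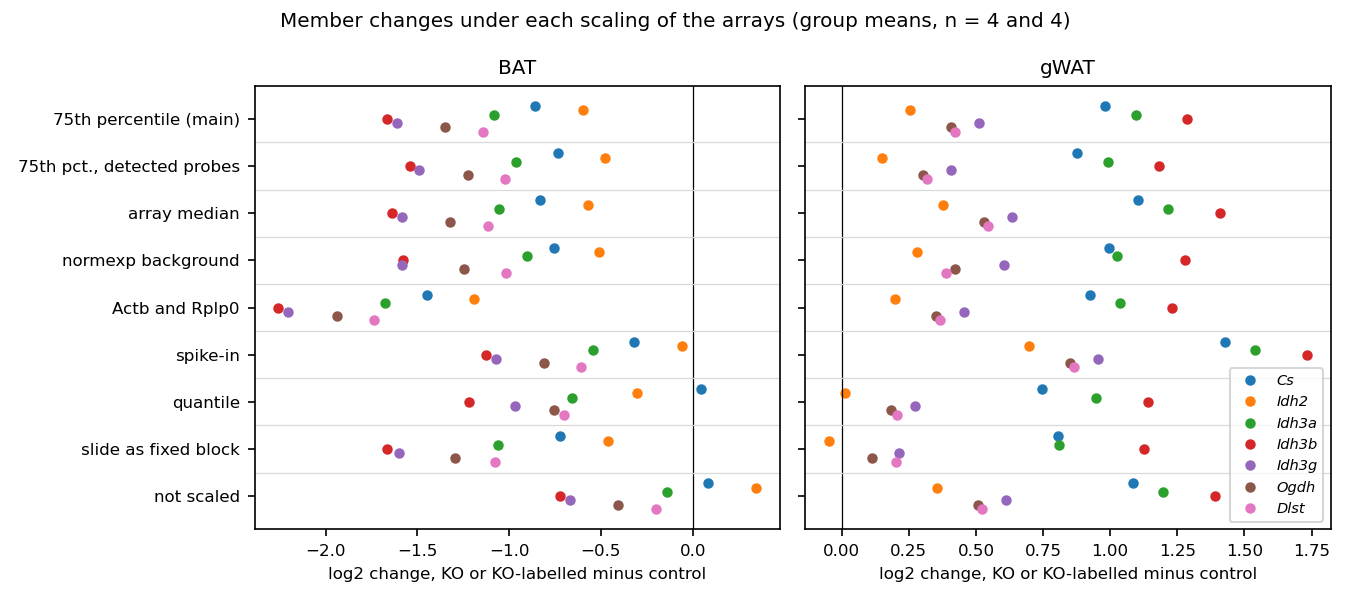
Log2 change of each of the 7 genes (x axis, group means of 4 against 4 arrays) under each way of putting the arrays on 1 scale (y axis), in BAT and gWAT. In BAT the median of the 7 genes lies between -1.74 (Actb and Rplp0) and -0.61 (spike-in) on the scaled lines and at -0.20 without scaling. Cs crosses 0 in BAT under quantile normalization and without scaling, and Idh2 crosses 0 in BAT without scaling.

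Differences between 2 genes on the same array do not depend on a single scaling factor for that array, and 6 pairs were compared in each tissue (12 tests, exact two-sided permutation test over arrays, smallest possible p = 0.0286). They depend on the probes, so only their change between groups is read. In BAT, Idh3b minus Idh3a changed by -0.58 (exact p = 0.0286, adjusted p = 0.0429) and Idh3g minus Idh3a by -0.53 (exact p = 0.0286, adjusted p = 0.0429), whereas Idh3g minus Idh3b changed by 0.05 (exact p = 0.457). The beta and gamma subunits thus fell by more than the alpha subunit in BAT, with no overlap between groups. In BAT 61.5% of all genes were called, and the share of other gene pairs that part without overlap was not computed for either tissue. Every pair with an adjusted p of 0.0429 stood at the smallest possible p. On the 4 BAT control arrays Idh3g minus Idh3a was 0.91, 0.90, 0.94 and 0.93, and on the 4 BAT KO arrays it was 0.47, 0.30, 0.38 and 0.41.

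In gWAT the subunits parted in another way. Idh3g minus Idh3a changed by -0.58 and Idh3g minus Idh3b by -0.78 (exact p = 0.0286 and adjusted p = 0.0429 for each), and Idh3b minus Idh3a changed by 0.19 (exact p = 0.0571, adjusted p = 0.0761). Idh3g minus Idh3b was 1.74, 1.59, 1.62 and 1.83 on the gWAT controls and 0.77, 0.94, 0.97 and 0.99 on the KO-labelled arrays. The gamma subunit was therefore lower relative to the alpha subunit in both depots, with changes of -0.53 (BAT) and -0.58 (gWAT). With all probes averaged, the change of Idh3g minus Idh3a was -0.70 in BAT and -0.46 in gWAT.

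Among the other pairs, Idh2 minus Idh3a moved by 0.49 in BAT and, in gWAT, by -0.84 (exact p = 0.0286 and adjusted p = 0.0429 for each), so that Idh2 moved less than the alpha subunit Idh3a in both depots. This does not hold against every IDH3 subunit on every probe. In gWAT the second Idh2 probe differed by 0.56 with overlapping groups, and Idh3g by 0.51 on its brightest probe and 0.77 on its second. Dlst minus Ogdh changed by 0.20 in BAT (exact p = 0.0286, adjusted p = 0.0429) and by 0.01 in gWAT (exact p = 0.857). Cs minus Idh3a changed by 0.22 in BAT (exact p = 0.0286, adjusted p = 0.0429) and by -0.11 in gWAT (exact p = 0.143), and with both Cs probes averaged these became 0.52 and 0.07. Quantile normalization, which does not use a single factor and was applied to the pairs after seeing the data, moved several of the BAT values. There Idh3b minus Idh3a changed by -0.56, Idh3g minus Idh3a by -0.31, Idh3g minus Idh3b by 0.25, Idh2 minus Idh3a by 0.35, Dlst minus Ogdh by 0.06 and Cs minus Idh3a by 0.70 in BAT. In gWAT Idh3g minus Idh3a changed by -0.68 and Idh3g minus Idh3b by -0.87 under it.

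**Figure D4:**
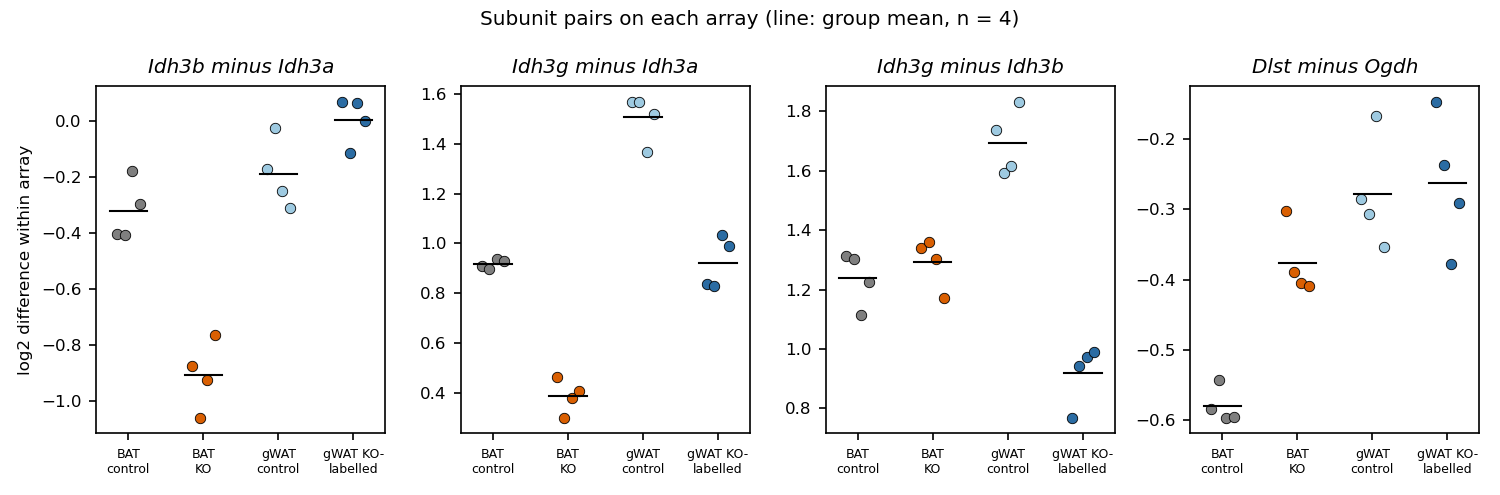
Log2 difference between 2 genes on the same array (y axis) for 3 pairs of IDH3 subunits and for Dlst minus Ogdh, by group (x axis), with a point per array and a line at the mean of 4. Idh3g minus Idh3a is lower on the KO and KO-labelled arrays of both depots, while Idh3g minus Idh3b is lower in gWAT (0.77 to 0.99 against 1.59 to 1.83) and overlaps in BAT.

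The response to the genotype label differed between depots for all 7 genes. The interaction, the gWAT change minus the BAT change in a fit over 16 arrays, ran from 0.85 in Idh2 (SE 0.22, adjusted p = 0.00555, limma) to 2.95 in Idh3b (SE 0.27, adjusted p = 5.2e-06, limma), with a median of 1.84 against 0.07 over all genes. In that comparison 27.4% of 14820 genes were called more positive in gWAT. Idh3a (2.18), Idh3g (2.12), Cs (1.84), Ogdh (1.76) and Dlst (1.57) lay in between. Idh2 no longer passed in this comparison under quantile normalization (0.31, adjusted p = 0.0885, limma) or with slide as a fixed block (0.42, adjusted p = 0.386, limma).

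All 7 genes were higher in BAT than in gWAT, by far more in controls than under the KO label. In controls the gap was 3.49 for Idh3a, 3.35 for Idh3b, 2.93 for Ogdh, 2.90 for Idh3g, 2.63 for Dlst, 2.27 for Cs and 1.66 for Idh2 (highest adjusted p = 2.87e-07, limma), so Idh3a was 11.2-fold and Idh2 3.17-fold higher in BAT. All 7 were called, in a comparison where 37.0% of 14304 genes were called higher in BAT. Between the KO groups, 5 of 7 were called higher in BAT, against 23.4% of 14449 genes, with 1.31 for Idh3a, 1.17 for Ogdh, 1.06 for Dlst, 0.81 for Idh2 and 0.77 for Idh3g. Cs (0.43, 95% interval 0.06 to 0.81, adjusted p = 0.0574, limma) and Idh3b (0.40, 95% interval -0.01 to 0.80, adjusted p = 0.0988, limma) did not pass. Both passed under quantile normalization (0.48 and 0.36), and with both Cs probes averaged Cs passed at 0.77. All BAT KO arrays lay on slide 2 and all KO-labelled gWAT arrays on slide 3, so the gap between the KO groups lies wholly between slides. With slide as a fixed block its median over the 7 genes was 1.21 in place of 0.81, and that of the gap in controls was 2.98 in place of 2.90.

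The order of the 4 groups was the same for each of the 7 genes, with BAT control highest, then BAT KO, then KO-labelled gWAT, then gWAT control. The middle neighbours did not differ beyond their test for Cs and Idh3b, and the lower neighbours did not for Idh2, Idh3g, Ogdh and Dlst. Pgam1 differed from this order, with a BAT KO mean of 6.20 and a KO-labelled gWAT mean of 6.31.

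**Figure D5:**
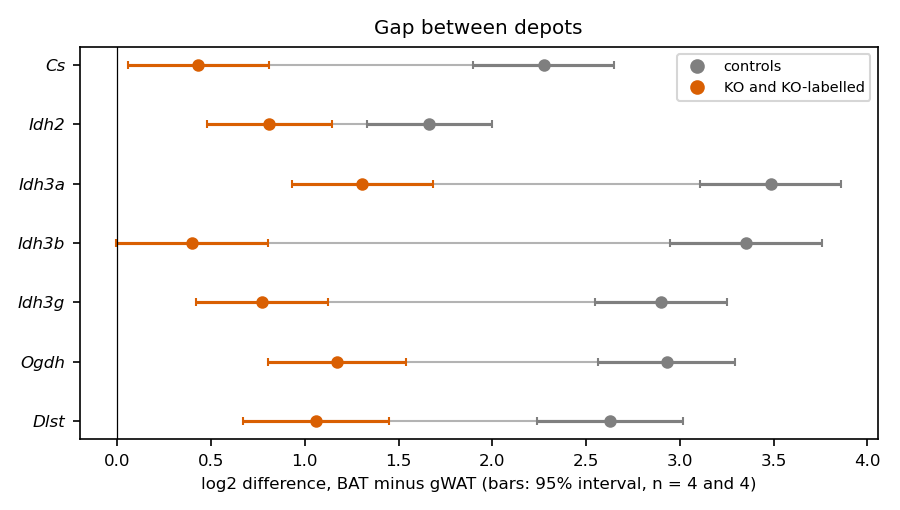
Log2 difference between BAT and gWAT (x axis, bars give the 95% interval, 4 against 4 arrays) for each of the 7 genes (y axis), in controls (grey) and between the KO and KO-labelled arrays (orange). The gap is 1.66 to 3.49 in controls and 0.40 to 1.31 between the KO groups, where the interval of Idh3b reaches 0.

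Across the 16 arrays the 7 genes followed one another closely, with Pearson r from 0.932 (Idh2 and Idh3b) to 0.998 (Ogdh and Dlst) over 21 pairs, as a description in which most of the spread lies between the 4 groups. Among the 10 genes with the profile most like the mean of the 7, of 12353 compared, the closest was Acadvl (r = 0.999), an enzyme of mitochondrial fatty acid oxidation. They also held the complex I subunits Ndufa9, Ndufv2, Ndufb6 and Ndufs8, the complex III subunits Uqcrb and Uqcrc2, Coq6 of coenzyme Q synthesis and Sdhd of succinate dehydrogenase (r from 0.996 to 0.998). The closest single gene was Mrpl16 for Cs, Cox17 for Idh2, Ldhb for Idh3a, Atp5d for Idh3b and Acadm for Idh3g (r from 0.988 to 0.997), while Ogdh and Dlst were each other's closest.

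The rest of the mitochondrial cycle behaved much as these 7 genes did. Of 10 other TCA cycle genes, 10 of 10 were called lower in BAT KO, with a median of -1.10, and 6 of 10 were called higher on the KO-labelled gWAT arrays, with a median of 0.65. Of all genes tested, 34.0% were called lower in BAT, 9.99% higher in gWAT and 1111 of 14149 lower in gWAT. The largest BAT changes were in Sucla2 (-1.91), a succinyl-CoA synthetase subunit, and Sdhc (-1.45), and the largest in gWAT were in Suclg1 (0.91) and Sdhb (0.85), an iron-sulphur subunit of succinate dehydrogenase. Of the other genes of the alpha-ketoglutarate dehydrogenase complex and its lipoic acid cofactor, 8 of 9 could be tested and 6 of 8 were called lower in BAT, led by Mrps36 (-1.65), a subunit that tethers Dld to the complex, and Dld (-1.002). In gWAT 1 was called higher, Dld (0.79), and 1 lower, Dhtkd1 (-0.95), the Ogdh paralog of lysine breakdown. Ogdhl, the other Ogdh paralog, was not well above background on any array.

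Cytosolic enzymes that use the same metabolites did not move as a block. For this paragraph, 34.0% of all genes tested were called lower and 3928 of 14280 higher in BAT, and 9.99% higher in gWAT. In BAT, 3 of 6 were called lower, led by Aco1 (-1.27) and Mdh1 (-0.65), and Got1, an aspartate aminotransferase, was called higher (1.83). In gWAT 3 of 6 were called higher, led by Acly (2.80), which splits exported citrate, and Me1 (1.84), the NADP+-dependent malic enzyme. Of 13 enzymes and carriers that feed or drain the cycle, 8 were called lower in BAT, led by the citrate carrier Slc25a1 (-1.50) and the pyruvate carrier subunit Mpc2 (-1.37), and 4 were called higher, led by the aspartate-glutamate carriers Slc25a12 (2.57) and Slc25a13, the latter not well above background on any BAT control array. In gWAT 9 of 13 were called higher, led by Slc25a1 (2.03) and Pdhb (1.89), a pyruvate dehydrogenase subunit, and none lower (limma, also 0 at an unadjusted p under 0.05).

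Of 9 regulators of mitochondrial genes, 5 were called lower in BAT, led by the coactivator Ppargc1b (-1.94) and the mitochondrial transcription factor Tfb2m (-1.64), and Nrf1 was called higher (0.71). Among all genes tested, 34.0% were called lower and 3928 of 14280 higher in BAT, and 9.99% were called higher in gWAT. In gWAT 0 of 9 were called by limma, with 1 higher and 1 lower at an unadjusted p under 0.05. Gabpa, whose binding letters stand in the Idh3b, Idh3g and Dlst windows printed above, had differences of -0.08 in BAT (adjusted p = 0.472, limma) and -0.48 in gWAT (adjusted p = 0.0666, limma). Of 10 genes of the mitochondrial outer membrane and protein import, 6 were called lower in BAT, led by Timm50 (-1.07) and Timm23 (-0.90), with a median of -0.40, and 5 were called higher in gWAT, led by Timm23 (0.77) and Vdac3 (0.68), with a median of 0.58.

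Markers of cell types moved with these results in BAT, where 34.0% of all genes tested were called lower and 3928 of 14280 higher. Adipocyte markers were called lower in 6 of 7 cases with a median of -1.13, next to the -1.14 of the 7 TCA genes, and their summed level fell from between 2308 and 2536 in controls to between 758 and 1044 in KO, in units of the 75th percentile. Brown adipocyte markers were called lower in 5 of 7 cases (summed level 2358 to 2520 in controls and 876 to 1355 in KO). Macrophage markers were called higher in 7 of 8 cases (30.2 to 42.1 in controls and 99.5 to 142 in KO) and fibroblast and progenitor markers in 5 of 6 (128 to 174 and 234 to 336). Skeletal muscle markers reached 94.4 on 1 BAT KO array against at most 4.27 in BAT controls, and 1 of 5 tested was called higher. The part of these markers in the change of the 7 genes was not tested.

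In gWAT the markers moved otherwise. There 9.99% of all genes tested were called higher and 1111 of 14149 lower. Adipocyte markers were called lower in 2 of 7 cases with a median of -0.16, and their summed level was 2167 to 3429 in controls and 1846 to 2475 on the KO-labelled arrays. Brown adipocyte markers had a summed level of 8.05 to 16.1 in controls and 49.5 to 138 on the KO-labelled arrays, and 2 of 4 tested were called higher. The brown marker Zic1 was not well above background on any gWAT array, and Ucp1 was not on any gWAT control array. Macrophage markers were called higher in 1 of 8 cases (73.3 to 103 and 76.3 to 201) and fibroblast and progenitor markers in 0 of 6 (limma, also 0 at an unadjusted p under 0.05). Markers of epididymis and testis reached 9.34 on 1 gWAT control array and at most 1.56 on the KO-labelled arrays, with Crisp1 not well above background on any of these 8 arrays. Skeletal muscle markers had a summed level of 3.18 to 25.03 in gWAT controls and 29.8 to 58.1 on the KO-labelled arrays, without overlap, and 0 of 5 tested were called by limma, with 1 higher and 1 lower at an unadjusted p under 0.05. Of the 5 tested, 4 were lower on the KO-labelled arrays and 1 was higher, with a median change of -0.63. The 1 higher was Acta1, skeletal muscle actin (2.20, adjusted p = 0.0503, limma), which was not called. The summed level is linear, so a single bright marker can carry it. Ckm was not well above background on any gWAT array. The part of these markers in the gWAT differences was not tested.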

How the data were processed

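The deposited scanner files hold the intensity of each spot from Agilent Feature Extraction 10.7.1.1 (processed signal, corrected for background by that software). By the study's methods, the authors normalized the scanned images with Agilent GeneSpring before deposit, and their value table holds linear normalized intensity ratios. After log2 was taken, these ratios of the same arrays matched the signals rescaled to the 75th percentile to within 0.1 for 99.9% of values. They were used as an alternative only. Duplicate spots were averaged, 56605 probes per array were scaled by log2 minus the array's 75th percentile, and RefSeq accessions were matched to GRCm38.p6 symbols (32994 of 35886 probes with such an accession, 91.9%). A gene was tested if well above background on all 4 arrays of a group compared. limma 3.58.1 (R 4.3.3) was fitted over the 8 arrays of a tissue for genotype and over 16 arrays for the interaction and tissue contrasts, with Benjamini-Hochberg adjustment over all genes tested and a threshold of 0.05. The fit was tested on simulated data. Differences within arrays were tested by exact permutation. The number of arrays limits the precision. Genes named from other lists were the 2 largest called changes in each direction. Gabpa, Acta1 and genes given as not well above background were named besides. The members and gene lists were chosen with earlier results of these data known. RNA input is given as 100 ng per array in the labels, and the study's methods give another amount. A gene of the cycle is not reported here and was left out of the list of other TCA cycle genes.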

Additional observations from a re-analysis of the deposited data

Results flagged for a closer look

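The response to the genotype label differed between BAT and gWAT for each of the 7 genes, by the interaction term of the 16-array fit. The gWAT change minus the BAT change was 1.84 for Cs, 0.85 for Idh2, 2.18 for Idh3a, 2.95 for Idh3b, 2.12 for Idh3g, 1.76 for Ogdh and 1.57 for Dlst (adjusted p from 5.2e-06 to 0.00555, limma).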

How the results depend on the processing

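Over 833 recomputed changes of the 7 genes in the 5 comparisons, 831 kept their direction. That count includes settings that alter only the genes tested or the spread, so the change could not move. Among these were the other filters, the replicate block and the methods' t-test. The unscaled BAT differences, above 0 for Cs (0.08) and Idh2 (0.35), are not among the 833. The 2 recomputed changes that reversed were Cs in BAT under quantile normalization (0.046) and Idh2 in gWAT with slide as a fixed block (-0.047). For Cs the cause was not tested. The blocked change of Idh2 is its difference from gWAT control replicate 4 alone, the only control on the slide of the KO-labelled arrays. In gWAT the number of the 7 genes called moved from 3 to 7 with spike-in scaling, 0 with slide as a fixed block and 1 with the replicate block, and leaving out 1 array gave 2 to 5, with 2 without control replicate 2 or KO replicate 1 (Cs at adjusted p = 0.0507 and 0.0504, limma) and 5 without KO replicate 4. In gWAT 2525 genes were called in all, against 1384 with the array median, 5101 with spike-in scaling, 1138 with no filter, 184 with slide as a fixed block, 1087 with the replicate block, 4040 in the fit over 16 arrays, 4673 by the methods' t-test and 1618 by that test after Benjamini-Hochberg adjustment, and leaving out 1 array gave 1080 to 3211 (1188 and 1581 without control replicates 2 and 3, 1080, 1283 and 1144 without KO replicates 1, 2 and 3). With slide as a fixed block, 3265 genes were called in the interaction and 1783 between the KO groups, against 7162 and 6693. The cause was not tested. Called genes were higher in 44.8% of cases in BAT and 56.0% in gWAT, against 79.6% and 95.3% with spike-in scaling, 17.7% in BAT with Actb and Rplp0 scaling, and 71.0% with the array median and 35.9% with slide as a fixed block in gWAT. Same-numbered arrays did not deviate together throughout (r from -0.19 to 0.43), so the numbers were not taken as pairs. All 11 probes of the 7 genes were well above background on all 16 arrays.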

Other observations

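In BAT, endothelial markers were called by limma in 0 of 5 cases, also 0 at an unadjusted p under 0.05, and 1 of 3 tested lymphocyte markers was called higher, Cd3d (1.35, adjusted p = 0.0138), named after its value was seen. Among all genes tested in BAT, 3928 of 14280 were called higher. In gWAT, 0 of 5 endothelial and 0 of 3 tested lymphocyte markers were called, also 0 at an unadjusted p under 0.05 for both. Of the epididymis and testis markers, 1 was tested in each tissue and was not called in either. The GC content of the 6 promoter windows ran from 50.3% (Idh3b) to 68.3% (Idh2), against a median of 52.7% over 27025 promoters.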
